A study of Mus musculus with 6 samples.

Results

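Immediate-early genes are transcribed within minutes of a stimulus, before any new protein is made, because the factors that switch them on are already in the cell and wait for phosphorylation by MAP kinases. Their products are short-lived transcription factors and feedback inhibitors. Enzymatic dissociation of a tissue, heating and sorting are known to induce the same genes, so in sorted cells their RNA can record the handling of a sample as well as the state of the tumor. The genes examined here were Fos, Fosb, Jun, Junb, Egr1, Atf3, Dusp1, Ier2, Ier3 and Nr4a1, a set chosen by name and found on the arrays through the RefSeq accession of each probe. All 10 were measured, among 22503 genes or unnamed transcripts tested in all.

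The RNA came from live CD45- cells, the leukocyte-depleted and tumor-enriched part of MMTV-PyMT mammary tumors. In this model the polyomavirus middle T oncogene is driven by the mouse mammary tumor virus promoter, which is active in mammary epithelium. Late carcinoma cells of either RANK+/+ or RANK-/- genotype had been grown orthotopically in C57BL/6 hosts of the same strain, so both groups carried the oncogene and grew in hosts with intact RANK, and RANK, the TNF receptor family member that Tnfrsf11a encodes and that activates NF-kB, was by its label missing only from the transplanted cells of one group. The tumors were disaggregated with enzymes before the sort. The labels give no age for the animals, and nothing in them ties the 3 RNAs of a genotype to separate tumors, so p values measure the spread between these RNAs and no more.

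Each array was hybridized with 1 RNA of each genotype in 2 colors. There were 3 pairs of RNAs, and each pair was hybridized to 2 technical replicate arrays named A and B, giving 6 arrays with 62976 spots each. In pair 1 the RANK-/- RNA was labeled with Cy5, and in pairs 2 and 3 with Cy3, so a difference between pair 1 and the others is also a difference of dyes. Dye swaps are described in the study methods, whereas the labels give both arrays of each pair one dye arrangement. The orientation of each ratio follows the labels. Median spot intensities ranged from 87 to 105.5 (Cy5) and from 48 to 54 (Cy3) over backgrounds of 63 to 71 and 30 to 36. Of the gene probes, 51.9% to 58.8% stood well above background in a given channel, and precision is limited by how few arrays there were. Log2 ratios above 0 mark a stronger signal in the RNA labeled RANK-/-. The A and B ratios were averaged, the pair was the replicate (n = 3), and errors are SDs over pairs.

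The deleted gene was read first. Tnfrsf11a was 2.03, 1.15 and 1.76 in pairs 1, 2 and 3 (mean log2 ratio 1.65 ± 0.45, n = 3; limma adjusted p 1.00), higher in the channel labeled RANK-/- each time. This goes against the label, and where in the gene the probe lies relative to the deletion is not given in the sources used here. Each direction below therefore rests on the channel labels as they stand. Of the markers of the sorted population, Epcam and Krt8, which mark epithelium, were well above background in both channels on all 6 arrays. Ptprc, which encodes CD45, was so in 5 of the RANK-/- channels and in 4 of the RANK+/+ channels.

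The promoters are shown first, since the letters around the start sites are what the family is known for: signal-responsive elements that bind factors already present. RefSeq promoter windows of assembly GRCm38.p6 were taken here as the 250 bases before the annotated start. Those of 8 of the 10 genes were searched (Fos, Fosb, Jun, Junb, Atf3, Nr4a1, Ier3 and Dusp1). No window of Egr1 or Ier2 was searched, so the counts below say nothing of these genes. Both strands were searched for the cyclic AMP response element (CRE, TGACGTCA), its shorter form TGACG, the AP-1 site TGANTCA and the CArG box bound by serum response factor, and the given strand for the TATA box TATAAA. The short form also lies within each full CRE. Of the 8 windows 6 held TGACG, against 17.8% of 32851 windows of the same length. The full CRE was found in Dusp1 (1.55% of all windows) and the TATA box in Fos (7.59%). No window of the 8 held the AP-1 site (6.75%) or the CArG box (1.47%), which says only that these letters are not in these bases. Jun and Ier3 held none of the motifs searched. A match is a description of letters, not a bound site.

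Printed here are the windows of Fosb, Nr4a1, Dusp1, Fos and Ier3, chosen with their ratios known. Matches are in capitals (CGTCA is TGACG read on the other strand), 5′ to 3′ on the strand of the gene. Fosb lies on the minus strand at chr7:19310046-19310295, Nr4a1 on the plus strand at chr15:101266596-101266845, Dusp1 on the minus strand at chr17:26508473-26508722, Fos on the plus strand at chr12:85473640-85473889, and Ier3 on the plus strand at chr17:35821463-35821712.
Fosb: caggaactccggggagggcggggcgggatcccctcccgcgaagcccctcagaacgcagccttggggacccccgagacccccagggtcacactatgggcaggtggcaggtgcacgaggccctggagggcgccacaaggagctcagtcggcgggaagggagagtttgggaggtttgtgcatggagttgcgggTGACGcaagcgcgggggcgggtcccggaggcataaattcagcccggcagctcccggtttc
Nr4a1: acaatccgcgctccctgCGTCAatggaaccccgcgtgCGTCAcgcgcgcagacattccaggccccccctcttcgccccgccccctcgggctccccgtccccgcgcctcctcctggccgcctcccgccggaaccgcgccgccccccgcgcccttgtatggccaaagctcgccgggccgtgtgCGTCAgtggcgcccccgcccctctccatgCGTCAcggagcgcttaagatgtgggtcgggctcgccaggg
Dusp1: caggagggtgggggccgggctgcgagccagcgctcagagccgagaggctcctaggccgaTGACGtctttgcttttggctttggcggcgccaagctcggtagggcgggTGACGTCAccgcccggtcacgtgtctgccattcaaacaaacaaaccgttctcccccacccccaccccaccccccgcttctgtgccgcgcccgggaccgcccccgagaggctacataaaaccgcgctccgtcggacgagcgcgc
Fos: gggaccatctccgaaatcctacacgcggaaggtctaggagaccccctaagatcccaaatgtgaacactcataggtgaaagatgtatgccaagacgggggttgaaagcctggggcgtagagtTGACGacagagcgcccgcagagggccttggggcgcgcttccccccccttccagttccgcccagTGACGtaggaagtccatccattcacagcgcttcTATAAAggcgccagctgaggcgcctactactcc
Ier3: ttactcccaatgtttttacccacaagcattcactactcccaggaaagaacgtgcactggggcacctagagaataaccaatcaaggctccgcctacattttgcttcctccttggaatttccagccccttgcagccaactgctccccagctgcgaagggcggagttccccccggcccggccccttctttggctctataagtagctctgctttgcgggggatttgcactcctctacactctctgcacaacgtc
Nr4a1 held TGACG in 4 places, Fos in 2 beside its TATA box, Dusp1 in 1 beside its full CRE, and Fosb in 1. Ier3 held it in none.

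No gene of the set passed the test between genotypes. By limma with Benjamini-Hochberg adjustment 0 of 10 were called, where 0 of all 22503 genes (0%) were, and 647 genes had an unadjusted p under 0.05, Ier3 being the 1 member among them. A rank product on the 3 pair ratios called 17 genes (0.0755%) and 0 members. The study also used a rank product, with settings that may differ, and reported far more differentially expressed genes. The count here does not stand for its result. For these genes, as for most genes tested, the arrays showed a difference between pairs of RNAs that was large beside the technical error. The median SD between pairs was 0.51 over the 10 genes and 0.33 over all genes, while the median technical SD between arrays A and B was 0.0572 and 0.0647. Between-pair spread was thus 8.98 times the technical spread in the set and 5.08 times over all genes. The set and all genes were not matched for signal, so these figures are not like for like. A limma F test of the 3 pair ratios against the technical error passed for 10 of 10 genes (adjusted p 2.93e-09 to 0.0224), where 88.4% of 22441 genes passed. That test compares these RNAs and not the genotypes.

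**Figure D1:**
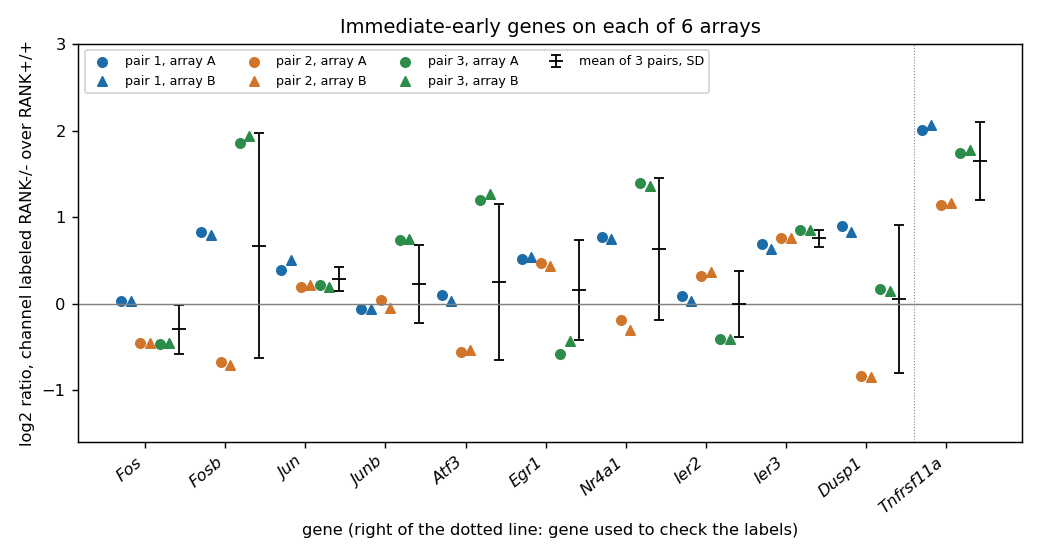
Log2 ratio of the channel labeled RANK-/- over the one labeled RANK+/+ (vertical axis) for the 10 genes and Tnfrsf11a (horizontal axis); colored points are single arrays, circles array A and triangles array B, and black bars are the mean and SD of 3 pairs. Arrays A and B nearly coincide, whereas pairs differ by up to 2.59 (Fosb), and Ier3 lies between 0.63 and 0.85 on all arrays.

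The AP-1 subunits came first. AP-1 is a dimer of a Fos and a Jun family protein, and Fos proteins bind DNA only with such a partner. Fosb, a Fos family member, had the widest range of the 10 genes. Its normalized log2 signal in the channel labeled RANK-/- was 15.53, 14.22 and 15.39 in pairs 1, 2 and 3, and in the channel labeled RANK+/+ it was 14.72, 14.91 and 13.50. The RANK+/+ RNA of pair 3 was the lowest of the 6 and the RANK-/- RNA of pair 2 the second lowest, so the groups overlapped. The log2 ratios were 0.81, -0.69 and 1.90 (mean 0.67 ± 1.30), that is 1.75-fold higher, at 0.619 of the RANK+/+ signal, and 3.73-fold higher.

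Fos itself moved less and in another direction. Its log2 signal was 15.29, 14.68 and 15.07 in the channel labeled RANK-/- and 15.26, 15.13 and 15.54 in the other. The lowest value was in the RANK-/- RNA of pair 2 and the highest in the RANK+/+ RNA of pair 3, with overlap between the groups. The log2 ratios of 0.03, -0.45 and -0.46 (mean -0.29 ± 0.28) are backed by 10 spots of the same probe per array, 8 to 10 of them usable, with an SD between spots of 0.0366 to 0.0691. The lower signal in pairs 2 and 3 was thus many times the spread between spots, and limma did not call it (adjusted p 1.00).

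The contrast between Fosb and Fos was sharpest in pair 3. There the ratio of Fosb exceeded that of Fos by 2.36 (5.14-fold), against 0.77 in pair 1 and -0.24 in pair 2. A difference between genes on the same array does not depend on a shift common to the array, and over the 5 scalings tried it stayed between 2.30 and 2.45 in pair 3. In the RANK+/+ RNA of that pair Fosb was at its lowest over the 6 RNAs and Fos at its highest.

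Jun and Junb, the Jun family members of the set, differed from each other too. Jun was 0.44, 0.20 and 0.20 in pairs 1, 2 and 3 (mean 0.28 ± 0.14), above 0 in each pair, but with median centring in place of loess it was 0.71, -0.44 and -0.87. Its signal was 16.29 to 16.81 in the channel labeled RANK-/- and 16.09 to 16.42 in the other, so the groups overlapped. Junb was near 0 in pairs 1 and 2 (-0.06 and -0.01) and 0.74 in pair 3 (mean 0.22 ± 0.45). Its 6 signals lay between 10.05 and 10.79, the RANK+/+ RNA of pair 3 lowest and its RANK-/- partner highest.

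Atf3, a bZIP factor of the ATF family that is induced by many kinds of cell stress, shared the pattern of Fosb in part. Its log2 signal was 15.51, 14.75 and 15.58 in the channel labeled RANK-/- and 15.45, 15.30 and 14.35 in the other. Pair 1 held nearly equal signals, while in pair 3 the RANK+/+ RNA was the lowest of the 6 and the RANK-/- RNA the highest. The log2 ratios were 0.06, -0.54 and 1.23 (mean 0.25 ± 0.90).

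Nr4a1, which encodes the orphan nuclear receptor Nur77, showed the same order of pairs. Its signal was 17.28, 16.86 and 17.86 in the channel labeled RANK-/- and 16.52, 17.11 and 16.48 in the other. The log2 ratios were 0.75, -0.25 and 1.38 (mean 0.63 ± 0.82). Pairs 1 and 3 stood at 1.69-fold and 2.60-fold, and the sign of pair 2 depended on the scaling: it was 0.17 in the series table that the authors normalized and 0.09 with the scanner's processed intensities.

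Egr1, a zinc-finger factor induced by growth factor signaling, ran otherwise. Its signal was 15.70, 15.85 and 14.75 in the channel labeled RANK-/- and 15.18, 15.40 and 15.26 in the other. The 3 RANK+/+ RNAs lay close together, and the RANK-/- RNA of pair 3 was the lowest of the 6. The log2 ratios were 0.53, 0.45 and -0.51 (mean 0.16 ± 0.58). In pair 3, where Nr4a1 was higher in the channel labeled RANK-/-, Egr1 was lower in it, and the ratio of Nr4a1 exceeded that of Egr1 by 1.89, or by 1.66 to 2.31 over the 5 scalings.

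Ier3 had the smallest SD over pairs of the 10 genes by intensity loess, although Jun had the smaller range with processed signals and Junb with median centring. It encodes a short-lived protein that acts in cell survival and in ERK signaling and is also a target of NF-kB. Its signal was 14.90, 15.16 and 15.04 in the channel labeled RANK-/- and 14.25, 14.40 and 14.18 in the other. All 3 RNAs labeled RANK-/- were above all 3 labeled RANK+/+, which was found for no other gene of the set and for 3.69% of all genes. The log2 ratios were 0.65, 0.76 and 0.85 (mean 0.75 ± 0.10, SE 0.14, 95% interval 0.38 to 1.13), equal to 1.57-fold, 1.69-fold and 1.81-fold.

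Ier3 did not pass after adjustment over all genes (limma adjusted p 1.00). With median centring its ratios were 0.91, 0.24 and -0.06. Median centring moved the median of all tested genes to 0.13, -0.19 and -0.39 in pairs 1, 2 and 3. Relative to these medians Ier3 was at 0.78, 0.43 and 0.33, above the median gene in each pair under all 5 scalings. Jun, relative to them, was at 0.58, -0.26 and -0.48 under that scaling.

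Ier2, a nuclear protein that shares the name but belongs to another family, was 0.06, 0.35 and -0.41 (mean -0.00 ± 0.38). Its signals were 11.69 to 11.80 in the channel labeled RANK-/- and 11.36 to 12.10 in the other, so the RANK-/- values lay inside the RANK+/+ range. In each pair its ratio was below that of Ier3, by 0.59, 0.41 and 1.26.

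Dusp1, the phosphatase that switches off p38, JNK and ERK and so ends the signal that induces the other genes, split the pairs. Its signal was 13.79, 13.04 and 13.86 in the channel labeled RANK-/- and 12.93, 13.88 and 13.71 in the other. The lowest value was in the RANK+/+ RNA of pair 1 and the highest in that of pair 2. The log2 ratios were 0.86, -0.84 and 0.15 (mean 0.06 ± 0.85), or 1.81-fold, 0.558 and 1.11-fold. In pair 2 Dusp1 and Egr1 moved apart, with Dusp1 lower than Egr1 by 1.30 on the log2 scale.

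**Figure D2:**
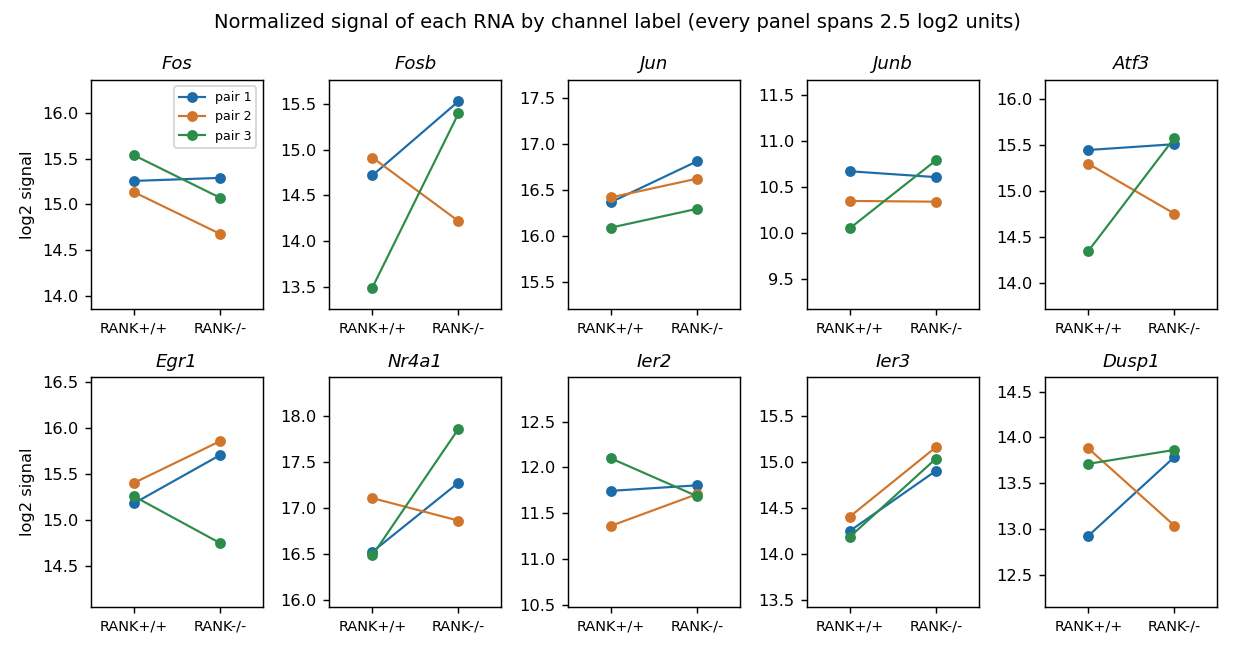
Normalized log2 signal (vertical axis) of each gene in the RNA labeled RANK+/+ and in the RNA labeled RANK-/- (horizontal axis); each line joins the 2 RNAs of a pair, and every panel spans the same 2.5 log2 units. Ier3 has its RANK-/- values of 14.90 to 15.16 all above its RANK+/+ values of 14.18 to 14.40, whereas the lines of Fosb, Atf3 and Nr4a1 slope down in pair 2 and up in pair 3, although for Nr4a1 the series table and the processed signals put pair 2 slightly above 0.

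Read pair by pair, the set was mostly higher in the channel labeled RANK-/- in pair 1 (9 of 10 genes above 0, median 0.48), mixed in pair 2 (4 of 10, median -0.13) and mostly higher in pair 3 (7 of 10, median 0.47). Medians of all genes were 0.01, -0.01 and 0.00. With median centring the counts became 10, 2 and 4 and the medians 0.75, -0.69 and -0.37. The medians of all genes were then 0.13, -0.19 and -0.39. Relative to those the set was at 0.62, -0.50 and 0.03, with 10, 3 and 5 genes above them. In pair 2 the median of the set was 0.07 in the series table and 0.01 with processed signals, with 5 of 10 above 0 in each, so its sign depended on the scaling. Of the 10 genes, 2 (Jun and Ier3) were above 0 in all pairs, against 9.95% of all genes, and 0 were below 0 in all pairs, against 9.65%. With 10 genes chosen by name these shares are a description.

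Fosb, Atf3, Nr4a1 and Dusp1 were lower in pair 2 and higher in pairs 1 and 3, which makes 4 of 10, where 18.8% of all genes had these signs. Of these 4, Nr4a1 in pair 2 changed sign in the series table and with processed signals (above), Atf3 in pair 1 with processed signals (-0.08), and Dusp1 in pair 3 changed sign in the series table (-0.07) and with median centring (-0.67). The count was 2 of 10 both in the series table and with processed signals. A difference of at least 2-fold was reached in pair 3 by Fosb, Atf3 and Nr4a1 (3 of 10; 4.91% of all genes), and by 0 of 10 in pair 1 (3.66%) or pair 2 (2.45%). In the other direction 0 of 10 reached 2-fold in pair 1 (2.84%), pair 2 (2.37%) or pair 3 (3.01%). The RANK+/+ RNA of pair 3 held the lowest of the 6 signals for 6 of the 10 genes (Fosb, Jun, Junb, Atf3, Nr4a1 and Ier3), against 18.2% of all genes, and the highest for Fos and Ier2. The set thus did not move as one block in that RNA.

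**Figure D3:**
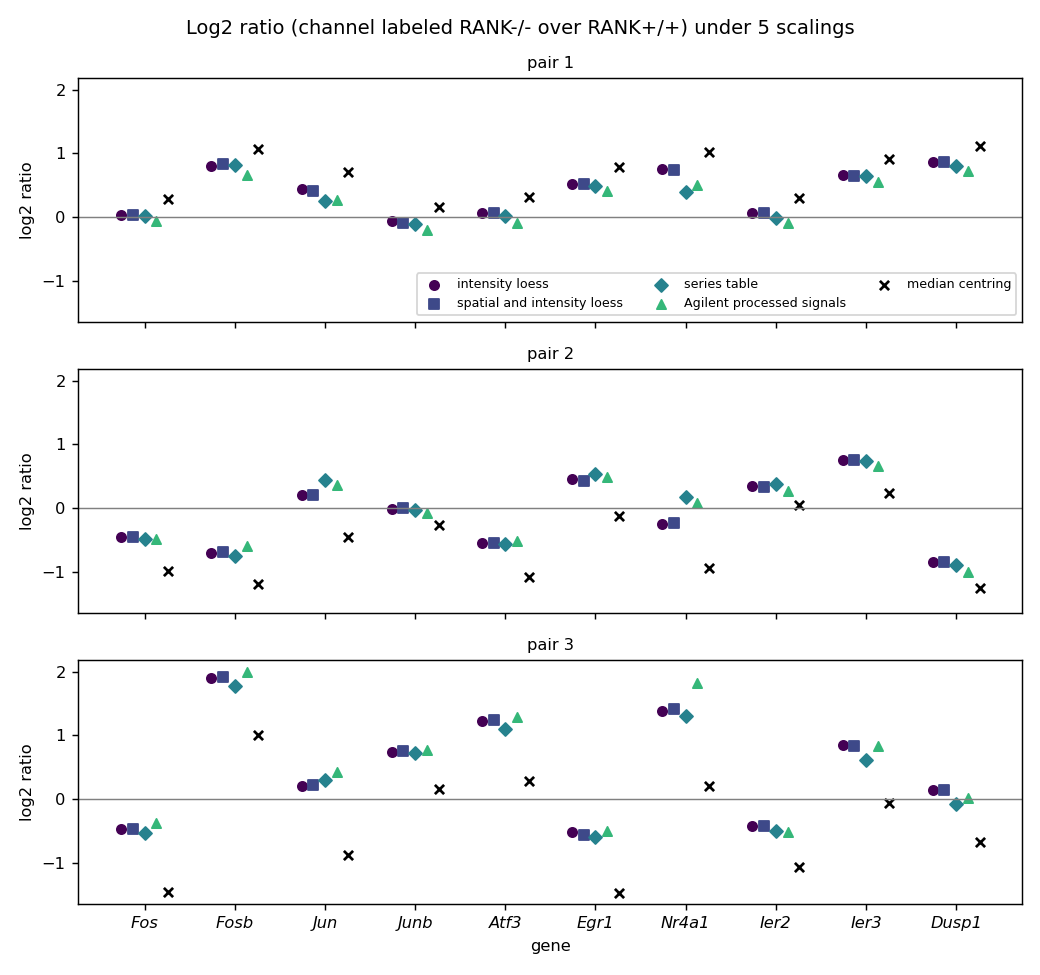
Log2 ratio of the channel labeled RANK-/- over RANK+/+ (vertical axes) of each gene (horizontal axis) in pairs 1, 2 and 3 (panels from top to bottom) under 5 scalings, shown as different symbols. Intensity loess, spatial loess, the series table and the processed signals mostly lie near each other. They part most visibly for Nr4a1, at 1.31 in the series table and 1.82 with processed signals in pair 3, and at -0.25 by loess and 0.17 in the series table in pair 2. Median centring (crosses) lies above them in pair 1 and below them in pairs 2 and 3, so that Ier3 in pair 3 is at 0.85 by loess and at -0.06 by median centring.

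Genes related to the set were read from fixed lists, with 0 genes called by limma in each list; the count at an unadjusted p under 0.05 is given for each. Of the remaining AP-1 and small Maf factors, the dimer partners and relatives of Fos and Jun, 11 of 12 were tested, with medians of 0.22, -0.25 and 0.92 in pairs 1, 2 and 3 (0 genes unadjusted). None was higher in all pairs and 1 was lower. The highest mean was that of Batf2 (-0.76, 1.48 and 2.22) and the lowest that of Batf (-0.28, -0.18 and -0.96), both of them leukocyte-expressed AP-1 partners. In 5 of the 11 the signs were those of Fosb. Among these, named after their values were seen, Jdp2, a repressor that dimerizes with Jun, was at 1.15, -1.57 and 1.69, and Jund was at 0.71, -0.73 and 1.12.

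Further immediate-early genes had the same signs of the medians under intensity loess. Of 42 listed genes 41 were tested, and their medians were 0.44, -0.37 and 0.51 (5 genes unadjusted). Lower in pair 2 and higher in both others were 18 of the 41 (10 with median centring, 16 in the series table and with processed signals), while 3 were higher and 4 lower in all pairs. Nr4a2, the Nur77 relative Nurr1, had the highest mean (1.85, -0.31 and 2.16), and Ccn2, a matricellular growth factor and target of YAP, the lowest (-1.55, -0.55 and -0.65). Nr4a3, the remaining Nur77 relative, and the Egr family are named after their values were seen. Nr4a3 was higher in every pair (0.89, 0.92 and 1.40; mean 1.07 ± 0.29). Egr2 had the order of Egr1 (0.84, 0.53 and -1.40), Egr3 was at -0.06, 0.22 and -0.09, and Egr4 went from -1.74 in pair 1 to 2.72 in pair 2 and -2.87 in pair 3.

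The MAP kinase phosphatases and Sprouty and Spred proteins, which damp MAP kinase signaling as Dusp1 does, had medians of 0.48, -0.44 and 0.14 (16 of 16 tested, 0 genes unadjusted). In 7 of the 16 the signs were lower in pair 2 and higher in both others. Dusp3 had the highest mean (0.99, -0.49 and 0.91) and Spry1 the lowest (0.85, -1.95 and -1.31). The kinases and factors that act upstream of the set, such as the ERK, JNK and p38 kinases, SRF and CREB, had flatter medians. These were 0.08, 0.07 and 0.18 over 27 genes (1 gene unadjusted). Crem, a CREB relative, was highest there (1.06, 0.16 and 1.06), although its dimmer tested probe was at 0.74, -0.29 and 1.18. Rps6ka3, the kinase RSK2, was lowest (-0.69, -0.06 and -0.51), and its other tested probes were at -0.57, 0.05 and -0.04 and at 0.17, -0.22 and -0.21.

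Heat shock genes, a second response to tissue handling, had flatter medians under intensity loess, although single genes varied between pairs. Their medians were 0.17, 0.18 and 0.03 (19 of 20 tested; 2 genes unadjusted), and 6 were higher and 0 lower in all pairs. The co-chaperone Dnajb1 was highest (0.60, 0.25 and 0.90) and the chaperone Hspa4l lowest (-0.40, 0.22 and -0.32). At least 2-fold higher were 0 of the 19 in pair 1, 2 in pair 2 and 3 in pair 3 (3.66%, 2.45% and 4.91% of all genes). None was 2-fold lower in any pair. Hspa1a, named after its values were seen, had the signs of Fosb (0.11, -0.47 and 1.48). Of the metallothioneins, which bind metals, Mt1 (0.07, -1.26 and 0.81) and Mt2 (-0.66, -1.24 and 1.43) were both lower in pair 2 and higher in pair 3 (0 genes unadjusted). Reference genes in common use had medians of 0.08, -0.02 and -0.25 over 12 genes (0 unadjusted), between Gusb (0.11, 0.56 and 0.57) and Hprt (-0.82, 0.30 and -0.56). With median centring the medians of pair 3 were -0.37 for the set, -0.32 for the further immediate-early genes, -0.76 for heat shock and -1.21 for the reference genes, so the sign of pair 3 depended on the scaling in each of these lists, apart from the reference genes.

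**Figure D4:**
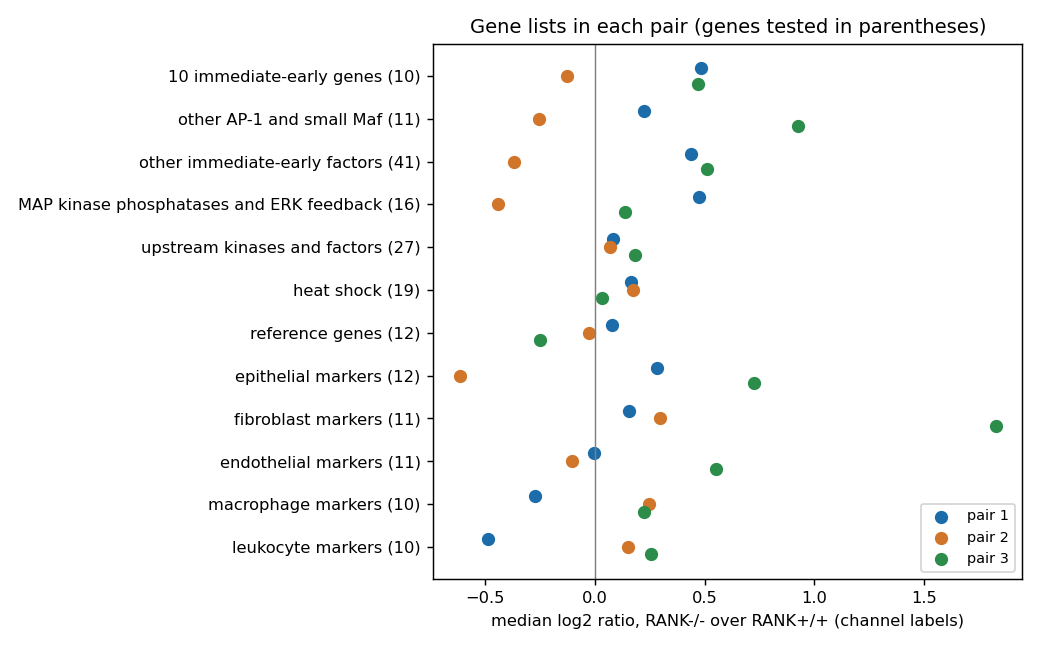
Median log2 ratio of the channel labeled RANK-/- over RANK+/+ (horizontal axis) in each pair for the 10 genes and the related lists (vertical axis, number of tested genes in parentheses); the metallothionein and neutrophil lists, with 2 and 5 tested genes, are not drawn. The set, the AP-1 relatives, the further immediate-early genes and the phosphatases have negative medians in pair 2 and positive ones in both other pairs, as do the epithelial markers, while heat shock genes lie between 0.03 and 0.18; with median centring the pair 3 medians of all of these but the AP-1 relatives turn negative, as does the pair 2 median of heat shock, with spatial loess the pair 3 median of heat shock does, and in the series table and with processed signals the pair 2 median of the set is above 0.

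Cell type markers differed between pairs as well. In a sorted mixture, fewer cells of a type and less RNA per cell cannot be told apart. Epithelial markers had medians of 0.29, -0.61 and 0.73 (12 of 12 tested), the signs of the set under intensity loess, with summed linear signals of 177238 to 492558 in the channel labeled RANK-/- and 205640 to 314566 in the other. Among them Epcam was 1.04, -0.67 and 0.52, and Krt8 was -0.41, -0.55 and 2.08. Fibroblast markers had medians of 0.16, 0.30 and 1.82 (11 of 11), with sums of 156054 to 252293 and 66529 to 154676, and Col1a1 was 0.68, 0.30 and 1.94. In pair 3, where Fosb, Atf3 and Nr4a1 were over 2-fold higher, both lists had medians above 0. So had the leukocyte, macrophage and endothelial lists, but not the neutrophil list (-0.05). With median centring the pair 3 median was -0.12 for the epithelial and 1.03 for the fibroblast markers, against -0.39 for all genes. The part of these lists in the result was not tested.

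Leukocyte markers had medians of -0.49, 0.15 and 0.26 (10 of 15), with sums of 7655 to 11506 and 8568 to 10720, and Ptprc was -0.93, 0.10 and 0.14. For macrophages the medians were -0.27, 0.25 and 0.23 (10 of 10; sums 14904 to 16438 and 7041 to 16963), with Adgre1 at -0.28, 0.25 and -0.06. Neutrophil markers were at -0.13, -0.00 and -0.05 (5 of 8; sums 44309 to 57782 and 45909 to 66125), and S100a8 at -3.99, 0.07 and -0.11. Endothelial markers were at -0.00, -0.10 and 0.55 (11 of 11; sums 5708 to 7016 and 5072 to 7359), with Pecam1 at 0.02, -0.25 and 0.29. Of the leukocyte markers Cd8a and Cd79a were well above background on 0 arrays, as were Cxcr2 and Retnlg of the neutrophil list. By limma 0 markers of the 6 cell type lists passed (1 fibroblast and 1 endothelial gene had an unadjusted p under 0.05), and their part in the values of the 10 genes was not tested.

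The genes most like the set were sought by the root mean square difference of their 3 pair ratios from the medians over the 10 genes. Outside the set the nearest were Stk11 (0.0261), Chrnb4 (0.0282), Sap25 (0.0300), Hoxc4 (0.0309) and Sphk2 (0.0365). Within the set the difference ran from 0.25 for Jun to 0.90 for Fosb. The 5 were picked as the closest of the named genes tested. Their smaller differences therefore say nothing of how alike the members were.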

How the data were processed

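RNA was compared on 6 arrays of 2 colors. Per the file headers the authors scanned them with Agilent Feature Extraction (10.7.3.1, per the submitters' processing notes), and the deposited tables hold each spot's median intensity and local background intensity per channel, not normalized, with processed intensities that are background-subtracted and dye-normalized. Log2 ratios normalized by the authors were deposited in a table for the whole series, which when set against the scanner ratios ran as RANK-/- over RANK+/+ on each array. Both were used as alternatives.

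Median intensities were corrected with normexp (offset 50), normalized by intensity loess and Aquantile (limma 3.58.1, R 4.3.3, and data.table, version 1.17.8), with control and outlier spots left out. Groups, pairs and dyes came from the sample labels. Spots of a probe were averaged, ratios were turned to RANK-/- over RANK+/+, and arrays A and B were averaged. Of 55681 gene probes, 30231 were kept, those that in the channel of either genotype exceeded background clearly (the scanner software's call) on arrays A and B of 2 or more pairs. Names came from RefSeq by accession (28026 probes matched), and the brightest probe stood for a gene, which left 22503 (14673 with a symbol). Each of the 10 genes had 1 probe. All 6 arrays lay on 1 slide. Genes were tested with limma on the 3 pair ratios (intercept only, two-sided, Benjamini-Hochberg, threshold 0.05) and with a rank product (100 draws). With 3 pairs the smallest p of an exact sign-flip test is 0.25. Scripts were tested on simulated data. Members and lists were chosen with earlier results of these data known. Named beside the 10 genes were the highest and lowest mean of each related list, defining cell markers and the 5 nearest patterns. Alternatives were other background settings, scalings, filters and probe rules, single arrays, a random block, a dye term, no block and leaving out each pair.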

Additional observations from a re-analysis of the deposited data

How the results depend on the processing

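Over 170 recomputed means of the 10 genes, 157 kept their sign and their side of the limma threshold, and 13 changed sign. No member passed under any setting tried, the random block included. With median centring the median over the 10 genes was -0.18, and Jun (-0.20), Atf3 (-0.16), Egr1 (-0.27) and Dusp1 (-0.27) turned negative. Dusp1 was also -0.0812 with processed signals and -0.0472 in the series table, and Ier2 was 0.0023 without background subtraction and 0.0135 with a dye term. The cause was not tested. Leaving out 1 pair gave -0.0277 to 0.49 for Egr1, -0.34 to 0.51 for Dusp1, -0.0360 to 0.37 for Junb, -0.24 to 0.65 for Atf3 and -0.18 to 0.20 for Ier2, and with no change of sign 0.06 (without pair 3) to 1.35 (without pair 2) for Fosb, 0.25 to 1.07 (the same pairs) for Nr4a1 and -0.46 to -0.21 for Fos. The signs of the first 5 means rested on single pairs: pair 1 for Egr1 and Dusp1, and pair 3 for Junb, Atf3 and Ier2. Limma called 13 genes with the pair as a random block over 6 arrays, by which arrays A and B count separately, and the rank product called 17, with 0 members in each. Without a replicate block (the channels as 3 samples per genotype) limma called 0 genes and 0 members, with 827 genes at an unadjusted p under 0.05. Deviations from the genotype mean correlated within pairs at -0.0344, -0.218 and -0.0410. With 3 RNAs per genotype and no reference value, these cannot tell whether the RNAs were paired beyond their shared arrays. With median centring 3 members were at least 2-fold higher in pair 1, 1 in pair 3, and 3 were 2-fold lower in pair 2 and 3 in pair 3. At 1.5-fold there were 4 higher in pair 1, 1 in pair 2 and 5 in pair 3, and 2 lower in pair 2. The shares of all genes at 1.5-fold, and at 2-fold with median centring, are not given. These counts therefore do not set the members apart from other genes. Signal over background did not limit the 10 genes, all well above it on all 6 arrays in both channels.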
